A study of Mus musculus with 10 samples.

Results

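The classical MHC class I genes described here are B2m, H2-D1 and H2-K1, 3 of 19505 genes read in hypothalamus from male mice of the inbred strain C57BL/6J. They were taken by name, each with the probe set of highest mean over the 10 arrays, and each had 1 probe set. They were chosen by their measured difference between ages, higher in Old than in Young in these same data, so their difference between ages is given as a description with no test. The samples were 5 Old, aged 138 weeks, and 5 Young, aged 24 weeks, both untreated as far as the labels say and fed freely under a 12-hour light cycle. Messenger RNA was hybridised to Clariom S Mouse arrays, which carry oligonucleotide probes for annotated genes and are read in 1 colour. Nothing in the labels ties each sample to its own animal, so a p-value here weighs the spread of these samples, part of which may be technical.

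MHC class I molecules carry short peptides from inside the cell to its surface. There CD8 T cells and natural killer cells read the molecules. H2-D1 and H2-K1 encode heavy chains that bind the peptide, and B2m encodes beta-2-microglobulin, the small light chain without which most class I molecules do not reach the surface. Peptides are cut by the proteasome, moved into the endoplasmic reticulum by the transporter Tap1 and Tap2, and loaded with the help of chaperones. Class I genes are raised by interferon and by NF-kB signalling in many cell types. In healthy brain their level is low in most neurons and higher in microglia and endothelium.

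The promoters of these genes are shown because class I genes are known to share regulatory elements near their start. Each window runs from 250 bases before to 50 bases after the annotated start, from RefSeq on GRCm38.p6. All 3 genes had an entry in the RefSeq table, H2-K1 with a pair of overlapping windows of which the first listed is printed. B2m is at chr2:122147437-122147736 on the + strand, H2-D1 at chr17:35262844-35263143 on the + strand and H2-K1 at chr17:34000298-34000597 on the - strand. Capitals mark matches on either strand to 4 motifs: the interferon regulatory factor core AANNGAAA, the NF-kB consensus, the CRE-type half-site TGACG and the CCAAT box.
B2m: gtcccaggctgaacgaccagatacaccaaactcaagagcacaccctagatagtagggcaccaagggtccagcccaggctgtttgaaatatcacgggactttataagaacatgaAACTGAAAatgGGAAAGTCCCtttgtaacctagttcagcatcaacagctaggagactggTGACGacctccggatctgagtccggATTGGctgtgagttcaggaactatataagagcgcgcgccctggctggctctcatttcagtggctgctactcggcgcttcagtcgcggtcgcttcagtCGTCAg
H2-D1: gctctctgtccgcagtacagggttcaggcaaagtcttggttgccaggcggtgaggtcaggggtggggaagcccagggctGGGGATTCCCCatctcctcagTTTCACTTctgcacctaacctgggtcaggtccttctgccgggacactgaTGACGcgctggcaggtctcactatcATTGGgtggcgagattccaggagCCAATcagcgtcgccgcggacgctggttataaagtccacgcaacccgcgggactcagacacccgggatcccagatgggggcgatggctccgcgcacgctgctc
H2-K1: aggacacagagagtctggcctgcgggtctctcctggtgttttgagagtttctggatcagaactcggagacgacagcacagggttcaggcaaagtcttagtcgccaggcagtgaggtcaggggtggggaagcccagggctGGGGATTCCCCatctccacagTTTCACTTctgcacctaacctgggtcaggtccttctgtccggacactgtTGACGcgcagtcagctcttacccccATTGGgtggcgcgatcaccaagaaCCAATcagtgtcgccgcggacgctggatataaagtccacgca

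Each of the 3 windows held all 4 motifs. Of 32851 RefSeq promoter windows of the same length, the interferon regulatory factor core was in 23.9%, the NF-kB consensus in 8.46%, the half-site in 20.8%, the CCAAT box in 37.4%, and all 4 together in 36 windows (0.11%), the windows of these 3 genes included. No match to one motif overlapped a match to another. In H2-D1 and H2-K1 the NF-kB match came first, and the interferon regulatory factor core began 21 bases after the first base of that match. In B2m the order was the reverse. The half-site was followed by an inverted CCAAT box (ATTGG) in each of the 3 genes, with 25 bases from the first base of one to that of the other. That arrangement, looked for after the windows had been read, was in 31 of the 32851 windows (0.0944%), these genes included. Among the 15 measured nonclassical and MHC-I-like genes with a window, H2-T22, H2-Q4 and H2-M3 held all 4 motifs, and H2-M3 also had the same spacing. The class II gene H2-Aa held all 4 as well, 1 of 8 class II genes with a window. The H2-D1 and H2-K1 windows aligned over 228 columns with 206 identical (90.4%), and B2m aligned with them over 110 and 111 columns at 64.5% and 61.3%. A match is a stretch of letters, not a shown binding site.

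The deposited values limit what can be read. They were read as log2 signal, from a range of 5.00 to 12.97 and array medians of 6.778 to 6.783; the base is not named in the file. For 97.9% of 22206 probe sets the spread over the 10 arrays was the same tiny SD of 1e-05 log2, within a tolerance of 1%, so a difference in such a gene has no readable size. Genes with an SD of at least 0.01 log2 are called varying below; there were 276, and all 3 class I genes were among them. Young 5 had the choroid plexus transcript Ttr at 12.44 log2 where the other 9 arrays had 6.90 to 7.97, and Young 3 had the liver transcript Mup2 at 7.35 where the others had 5.85 to 6.39. The 14 measured hypothalamic markers had mean levels from 6.23 to 10.56 log2, with the peptide genes Sst and Pmch at the top. Nkx2-1 (6.23) and Pomc (6.32) lay below the array medians. The dopamine transporter gene Slc6a3 split the arrays by number at both ages, at 8.26 to 8.90 log2 in Old 1 to Old 3 and 6.65 to 7.22 in Old 4 and Old 5, and at 8.30 to 8.51 in Young 1 to Young 3 and 6.91 to 7.04 in Young 4 and Young 5.

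B2m stood at 10.70, 10.76, 10.70, 10.64 and 10.57 log2 in Old 1 to Old 5, against 9.85, 9.95, 10.08, 9.998 and 10.18 in Young 1 to Young 5. The groups did not overlap, and the lowest Old array lay 0.39 log2 above the highest Young array. Means were 10.67 ± 0.07 in Old and 10.01 ± 0.12 log2 in Young (SD, n = 5 each), a difference of 0.66 (SE 0.064) or 1.58-fold. The Young arrays spread more widely than the Old ones, with Young 5 at the top and Young 1 at the bottom. Without Young 3 and Young 5 the difference was 0.74 log2.

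H2-D1 encodes a heavy chain, the polymorphic part that holds the peptide. Its values were 7.56, 7.65, 7.55, 7.54 and 7.49 log2 in Old 1 to Old 5, against 7.04, 7.12, 7.13, 7.05 and 7.15 in Young 1 to Young 5. Again no Old array reached down to a Young one, with a gap of 0.35 log2. Means were 7.56 ± 0.059 in Old and 7.10 ± 0.048 log2 in Young (SD, n = 5 each), a difference of 0.46 (SE 0.034) or 1.38-fold. Young 5 and Young 3 were the highest Young arrays, and without both the difference was 0.49 log2.

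H2-K1, the other classical heavy chain of this strain, differed on a far smaller scale. Its values were 7.842, 7.870, 7.848, 7.855 and 7.857 log2 in Old 1 to Old 5, against 7.790, 7.807, 7.806, 7.798 and 7.789 in Young 1 to Young 5. The groups did not overlap either, but the gap was 0.034 log2. Means were 7.854 ± 0.011 in Old and 7.798 ± 0.0086 log2 in Young (SD, n = 5 each), a difference of 0.056 (SE 0.0061) or 1.04-fold, and 0.056 without Young 3 and Young 5. The spread of H2-K1 between arrays of one age was 0.0097 log2, where it was 0.10 for B2m and 0.054 for H2-D1. The deposited values of most genes are shrunk to almost no spread. How far those of H2-K1 were shrunk is unknown, so its fold cannot be set against that of H2-D1. The same is unknown for B2m and H2-D1, so their folds may be shrunk too. The heavy-chain genes are also close in sequence, and their probe sets may take signal from each other.

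**Figure D1:**
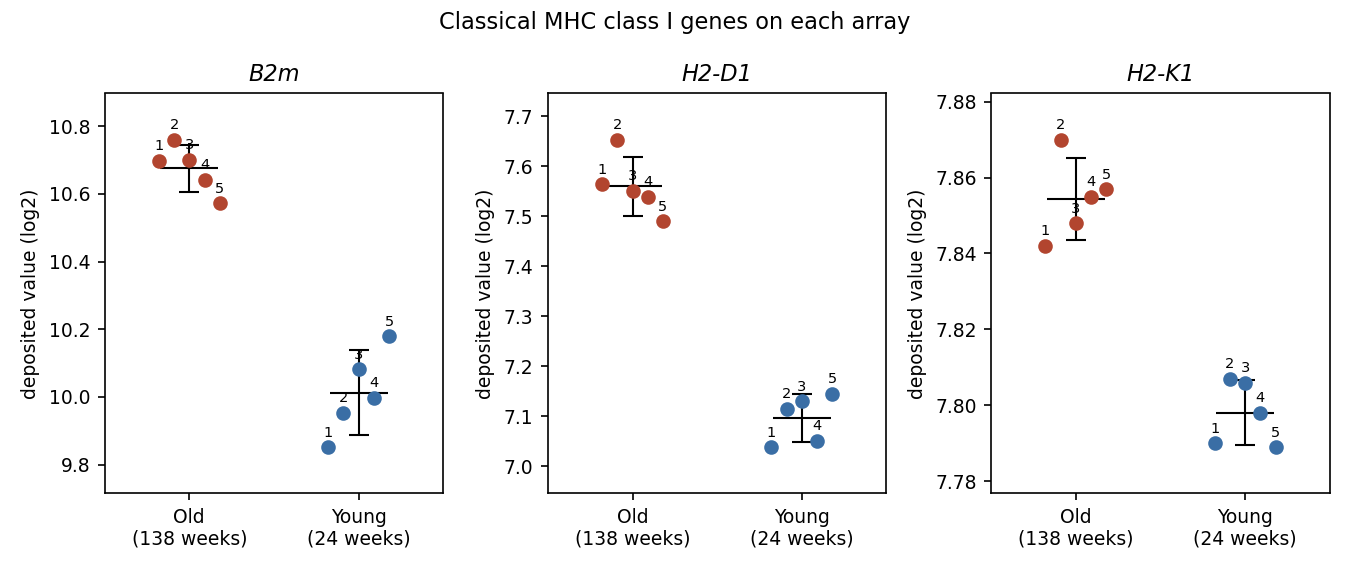
Deposited log2 values of B2m, H2-D1 and H2-K1 on each array, numbered by replicate, with Old (138 weeks) left of Young (24 weeks); bars are the mean ± SD of 5 arrays and each panel has its own scale. In each gene all 5 Old arrays lie above all 5 Young arrays, by a gap of 0.39, 0.35 and 0.034 log2.

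In all 3 genes every Old array lay above every Young array, which was so for 0.836% of all 19505 genes and for 20.7% of the 276 varying genes. Since the genes were chosen for being higher in Old, nothing is read from that count. Old 2 was the highest Old array for each of them. Old 5 was the lowest for B2m and H2-D1, and Old 1 for H2-K1. Young 5 was the highest Young array for B2m and H2-D1 but the lowest for H2-K1, and Young 1 was the lowest for B2m and H2-D1.

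The spread within each age was not used to choose the genes, so it was tested. With each age's mean removed, B2m and H2-D1 varied together over the 10 arrays, with a Pearson r of 0.80 and a Spearman rho of 0.83. Their exact permutation p, over the 14400 ways of reordering arrays within ages, was 0.0059 and 0.0090 (2-sided). Adjusted over the 18 relations tested, p was 0.106 and 0.161 by the exact permutation test, so neither passed. Without Young 5 and Young 1, the arrays farthest out in B2m, r was 0.78. Leaving out Young 2 or Young 4 gave an r of 0.86 and 0.83 with an adjusted exact permutation p of 0.0313 and 0.025, past the threshold. Leaving out Young 5 gave an r of 0.80 with an adjusted exact permutation p of 0.172, not past it. Leaving out any other single array did not bring the relation past the threshold either.

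Within ages H2-K1 had an r of 0.046 and a rho of -0.018 with B2m (exact permutation p = 0.902 and 0.975). The spread of H2-K1 within an age was 0.0097 log2, under the 0.01 that counts as varying. Its r with B2m and H2-D1 therefore cannot show whether H2-K1 follows them. With H2-D1 its r was 0.41 and its rho 0.25 (exact permutation p = 0.28 and 0.514). Without the 2 arrays farthest out these r were 0.15 and 0.15. Without Young 5, which was high for B2m and H2-D1 and low for H2-K1, they were 0.40 and 0.62, and neither passed. Young 5 is the array high in Ttr, and B2m had an r of 0.70 with Ttr over all arrays and 0.40 without Young 5 (exact permutation p = 0.0541 and 0.339). None of the 12 relations of the class I genes with the interferon-stimulated gene Ifit3, the microglial protease gene Ctss, the astrocyte gene Gfap or Ttr passed. Their r ran from -0.40 to 0.70, and the lowest adjusted exact permutation p was 0.487 for r and 0.399 for rho.

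Slc6a3 separates arrays 1 to 3 from arrays 4 and 5, so no r over all arrays is given for it; its 3 relations with the class I genes were not past the threshold, and the lowest adjusted exact permutation p was 0.399, or 0.172 without Young 5 for H2-D1. Among the 6 arrays numbered 1 to 3, chosen after the values were seen, Slc6a3 had an r of 0.50 with B2m, 0.79 with H2-D1 and 0.63 with H2-K1 (exact permutation p = 0.111, 0.139 and 0.444). In the same 6 arrays r was 0.79 for B2m and H2-D1, 0.65 for B2m and H2-K1 and 0.94 for H2-D1 and H2-K1 (exact permutation p = 0.0556, 0.111 and 0.111). With 36 reorderings the exact p cannot go below 0.0278. Adjusted over these 6 relations, the lowest exact permutation p for r was 0.167, so none passed. Arrays 4 and 5, with 4 samples, are too few for a value. The Old minus Young difference was 0.76 log2 for B2m, 0.49 for H2-D1 and 0.052 for H2-K1 in arrays 1 to 3, and 0.52, 0.42 and 0.063 in arrays 4 and 5. Every Old value of these genes lay above every Young value over all arrays, so the same had to hold in each set. Nothing is read from it.

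**Figure D2:**
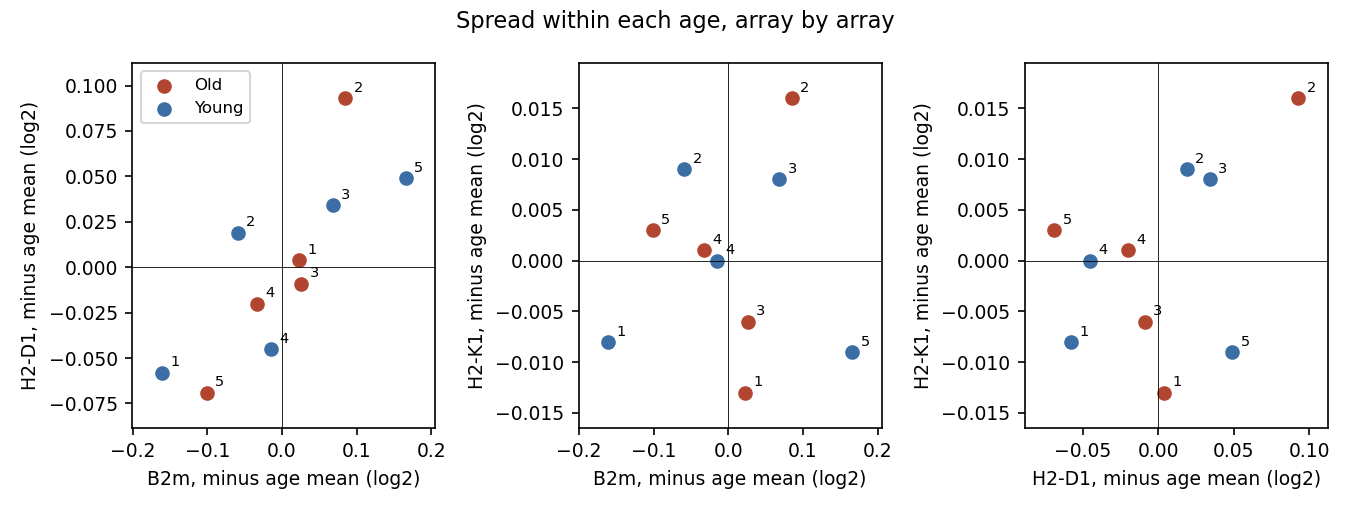
Each point is 1 array, numbered by replicate, with the mean of its age subtracted (log2); the panels set B2m against H2-D1, B2m against H2-K1 and H2-D1 against H2-K1. B2m and H2-D1 line up (r = 0.80), while Young 5 lies high for both and low for H2-K1.

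Over all 10 arrays, where age dominates, the varying genes whose values ran most like the 3 class I genes were Ctss, Pcdhb2, C4b, Ifit3b and Ifit3, by the mean of their 3 Pearson r. Those means were 0.97 for Ctss, 0.97 for Pcdhb2, a beta protocadherin of neuronal adhesion, and 0.96 for C4b, a complement component. They were 0.95 for both Ifit3b and Ifit3, antiviral effectors. With each age's mean removed the order changed: the highest mean r was 0.62 for Prxl2a, 0.59 for Ifitm3, a membrane protein that restricts viral entry, and 0.58 for Lcn2, the secreted iron-siderophore binder lipocalin 2. All of these are descriptions over the same 10 arrays, and the parts of age, dissection and normalization in them were not tested. Prxl2a had an r of 0.79 with B2m, 0.83 with H2-D1 and 0.25 with H2-K1, and Ifitm3 had 0.72, 0.86 and 0.20. The small spread of H2-K1 within ages limits what its r can show. Lcn2 ran from 6.14 to 7.95 log2 in Old and from 5.76 to 7.34 in Young, with its highest Young value in Young 3.

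The other genes of class I biology came from 8 lists by role and from the genes between H2-K1 and H2-D1. Joined, they held 171 measured genes besides the 3, and 10 of them varied. Old was compared with Young by limma over all 19505 genes, with Benjamini-Hochberg adjustment at 0.05. In that fit 37 genes rose (0.19%) and 6 fell (0.0308%). Among them 6 that rose and 3 that fell do not vary, so their differences have no readable size. An unadjusted p under 0.05 was found for 6.82% of all genes, which is the share to read beside the counts at that level below. Of the joined genes 5 rose and 0 fell, and without Young 3 and Young 5 it was 6 and 0; the 5 are named below with their lists. The median difference of each list lay between -1.15e-05 and 2.96e-06 log2. In a fit to the varying genes alone, 24.6% rose and 11.2% fell, and 7 of the joined genes rose and 1 fell.

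Of the 21 measured nonclassical and MHC-I-like genes, 0 rose and 0 fell in limma, with 1 at an unadjusted p under 0.05, and 0 varied. H2-T23, which in mice presents leader peptides to natural killer receptors, lay at 7.17 log2 on every array. The median difference of the list was -1.18e-06 log2, beside -8.85e-08 over all genes. The values cannot show whether this list follows the classical genes.

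Peptide loading genes put the peptide on the heavy chain. Of 8 measured, 0 rose and 0 fell in limma, with 1 at an unadjusted p under 0.05, and 2 varied. Calr, the chaperone calreticulin of the loading complex, had 10.89 to 10.94 log2 in Old and 10.91 to 10.998 in Young, a difference of -0.04 (SE 0.017, limma adjusted p = 0.686). Pdia3, the thiol oxidoreductase ERp57 of the same complex, had 9.55 to 9.61 log2 in Old and 9.52 to 9.80 in Young, a difference of -0.09 (SE 0.044, limma adjusted p = 0.783). Old and Young values overlap in both, and limma on the varying genes gave an adjusted p of 0.182 and 0.166. Both means were lower in Old, opposite to B2m and H2-D1. The chaperone gene Canx (9.91 log2) and Tapbp, which encodes tapasin (8.30 log2), did not vary, nor did the transporter genes Tap1 (6.70) and Tap2 (7.13); Tap1 is named for its role, outside the rule for named genes.

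The immunoproteasome cuts peptides better suited to class I. Of its 5 measured genes 0 rose and 0 fell in limma, with 1 at an unadjusted p under 0.05, and 0 varied. Psme1, an activator subunit, lay lower in every Old array than in every Young one, as 0.442% of genes that do not vary did, but by 1.6e-05 log2 at a level of 10.01, a size that cannot be interpreted. Psmb8, a catalytic subunit, lay at 6.55 and Psmb10 at 7.48 log2. Of the 12 measured class I transcription genes, 0 rose, 0 fell and 0 varied, with 1 at an unadjusted p under 0.05. Among them were Rfxap (8.05 log2) and Rfx5 (7.87), subunits of the factor that binds class I and class II promoters, Nfyc (8.08), a subunit of the CCAAT-binding factor, and Rela (7.87), an NF-kB subunit. Of 9 interferon receptor, kinase and ligand genes, 0 rose and 0 fell in limma, with 0 at an unadjusted p under 0.05, and 0 varied.

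Interferon-stimulated genes are switched on by the same interferon signals as class I. Of 28 measured, 3 rose and 0 fell in limma, and 5 varied. At an unadjusted p under 0.05 there were 10, of which 6 had higher and 4 lower means in Old; those 4, Isg15, Rsad2, Rtp4 and Parp14, do not vary and their differences have no readable size. The list's median difference was 2.96e-06 log2. Ifit3, which binds other Ifit proteins on foreign RNA, had 8.13 to 8.63 log2 in Old and 7.07 to 7.41 in Young, a rise of 1.12 (SE 0.10, adjusted p = 0.00241). Ifit3b, its close copy, had 8.08 to 8.37 log2 in Old and 7.01 to 7.21 in Young, a rise of 1.04 (SE 0.059, adjusted p = 0.000172). The copies are alike enough to share signal. Xaf1, an apoptosis factor, also passed in limma (adjusted p = 0.0116), with a difference of 0.0075 log2 and no readable size.

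The other 3 varying members passed in the varying genes alone, not over all genes. Oasl2, an antiviral oligoadenylate synthetase-like gene, had 6.92 to 7.19 log2 in Old and 6.41 to 6.75 in Young, a difference of 0.42 (SE 0.07, limma adjusted p = 0.08, or 0.00146 with varying genes alone). Ifitm3 had 7.001 to 7.25 log2 in Old and 6.67 to 6.99 in Young, a difference of 0.30 (SE 0.063, limma adjusted p = 0.21 and 0.00553). Ifi27 had 6.65 to 6.75 log2 in Old and 6.28 to 6.62 in Young, a difference of 0.28 (SE 0.056, limma adjusted p = 0.159 and 0.00354). Without Young 5 its limma adjusted p over all genes was 0.0111. In all 5 varying members every Old array lay above every Young array, beside 20.7% of the varying genes. Isg15, Mx1 and Usp18, widely used interferon markers named outside the rule, did not vary, so their change cannot be read.

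**Figure D3:**
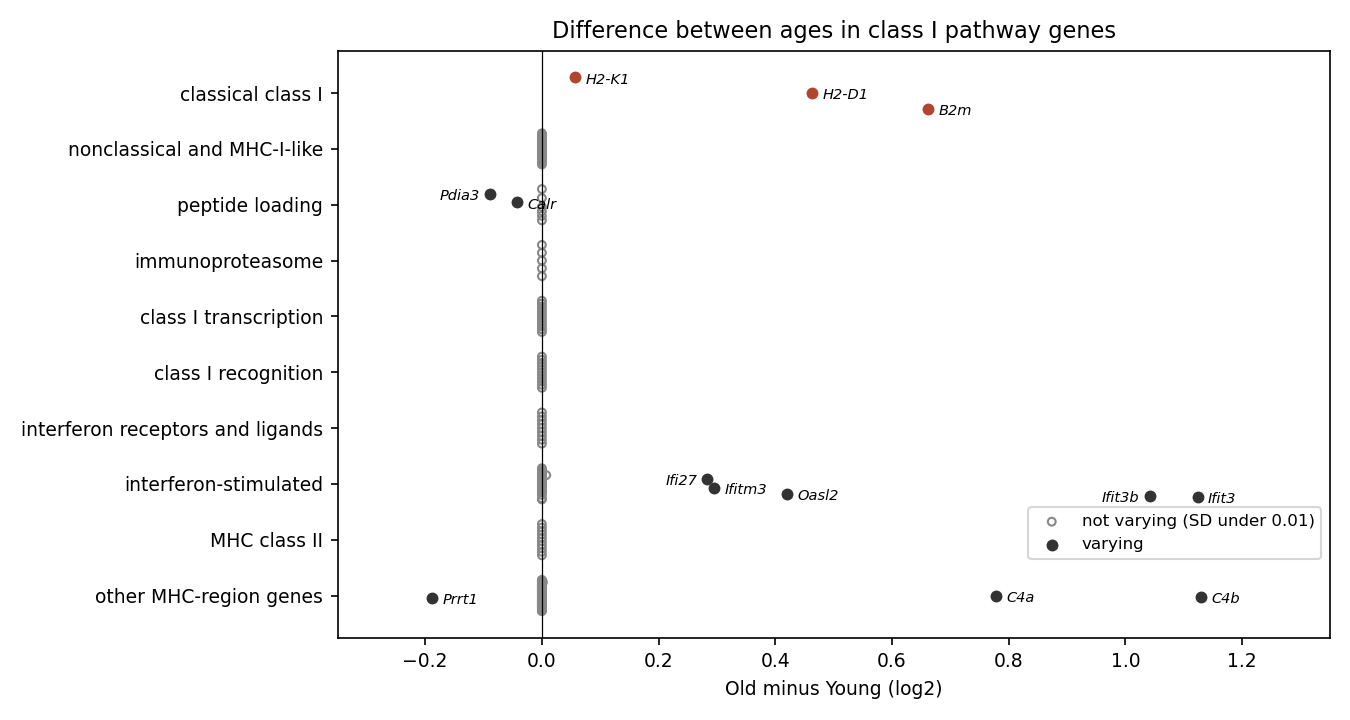
Old minus Young difference (log2) of each measured gene by list; filled points vary over the arrays (SD of at least 0.01 log2) and open points do not. B2m and H2-D1 lie at 0.66 and 0.46, varying interferon-stimulated genes at 0.28 to 1.12, and Calr and Pdia3 just below 0.

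H2-K1 and H2-D1 lie on chromosome 17 at opposite ends of a stretch that holds the class II genes, the complement C4 genes and others. Between them the RefSeq table places 120 genes, of which 80 were measured and 3 varied. In limma over all genes 2 of the 80 rose and 0 fell, with 9 at an unadjusted p under 0.05. C4b had 8.59 to 8.98 log2 in Old and 7.55 to 7.77 in Young, a rise of 1.13 (SE 0.072, adjusted p = 0.000371). C4a, its near-identical neighbour, had 7.05 to 7.41 log2 in Old and 6.36 to 6.55 in Young, a rise of 0.78 (SE 0.069, adjusted p = 0.00241). Prrt1, a partner of synaptic glutamate receptors, had a lower mean in Old, with 9.14 to 9.31 log2 in Old and 9.38 to 9.54 in Young, a difference of -0.19 (SE 0.04, limma adjusted p = 0.209, or 0.00727 with varying genes alone). The other 77 did not vary, so the rises stand beside genes whose change cannot be read, not beside genes shown to be steady.

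**Figure D4:**
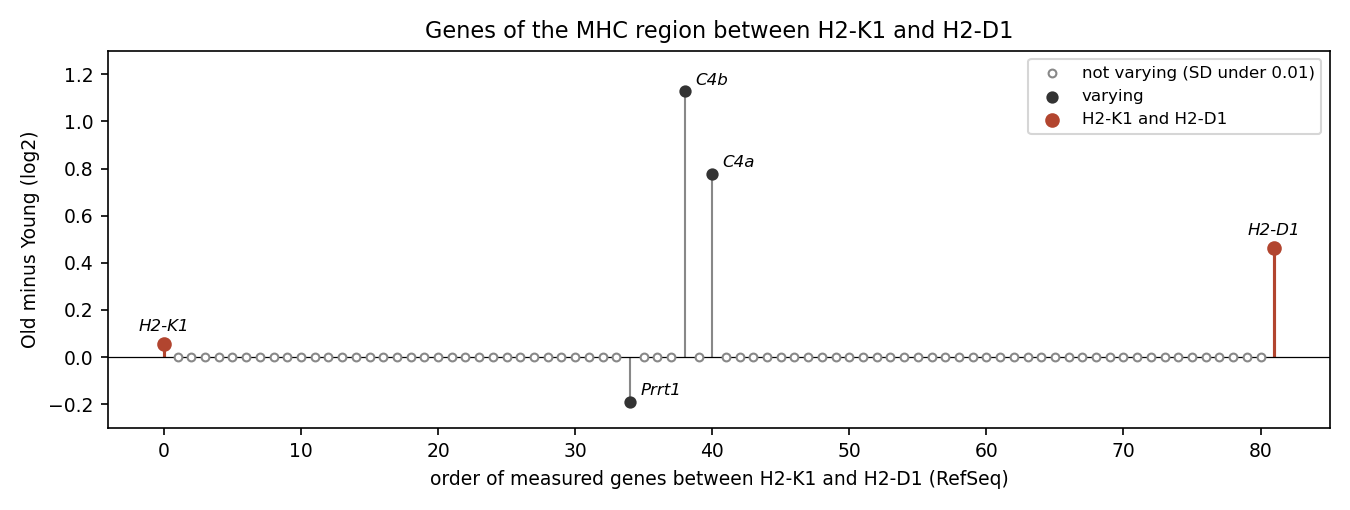
Old minus Young difference (log2) of the 80 measured genes between H2-K1 and H2-D1, in RefSeq order, with the class I genes in red at the ends. C4b and C4a stand at 1.13 and 0.78, Prrt1 at -0.19, and open points did not vary.

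Class II genes present peptides from outside the cell. Of 10 measured, 0 rose and 0 fell in limma, with 0 at an unadjusted p under 0.05, and 0 varied, so the values do not tell whether class II moved with class I. The receptors and cells that read class I were as hard to see. Of 11 recognition genes 0 rose and 0 fell in limma, with 1 at an unadjusted p under 0.05. Lilrb4a lay higher in every Old array than in every Young one, as 0.551% of genes that do not vary did, by 1.64e-05 log2. The 7 T cell, 6 natural killer cell and 3 B cell markers measured did not vary, at 5.50 to 6.72, 5.45 to 6.04 and 5.62 to 5.95 log2. Cd8a lay at 6.05 log2 on all arrays.

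Calls among markers of cells that could carry class I stand beside shares over all genes of 0.19% that rose and 0.0308% that fell. In bulk tissue, more cells of a type and more RNA per cell cannot be told apart. Of 12 microglial markers 2 rose and 0 fell in limma: Ctss, by 0.91 (SE 0.047, adjusted p = 0.000172), and C1qc, by 0.0059 log2 with no readable size (adjusted p = 0.0289). The mean over the 12 markers ran from 7.59 to 7.64 log2 in Old arrays and from 7.48 to 7.51 in Young arrays. That mean rests on 3 varying genes, Ctss and the complement genes C1qa and C1qb, since the other 9 did not vary. C1qa and C1qb, named after their values were seen, had differences of 0.34 and 0.29 log2 with every Old array above every Young one (limma adjusted p = 0.0719 for both, or 0.00146 and 0.00148 with varying genes alone). Cx3cr1, P2ry12 and Tmem119, which define resting microglia, did not vary, so their change cannot be read. The part of microglia in the class I values was not tested. Of 8 endothelial markers 0 rose and 0 fell in limma, with 0 at an unadjusted p under 0.05. Their mean ran from 7.52 to 7.59 log2 in Old and from 7.52 to 7.55 in Young. Only Ly6c1 varied among them, with a difference of 0.12 log2 (SE 0.093, limma adjusted p = 0.883), so the mean rests on that gene. The change of the other 7 cannot be read. Of 9 astrocyte markers Gfap rose by 0.44 (SE 0.065, adjusted p = 0.0396), and Ntsr2, a neurotensin receptor, and Kcnj10, a potassium channel, fell by 0.30 and 0.48 log2 (adjusted p = 0.00241 and 0.0104 in limma). The Gfap call was lost without any 1 of Old 1 to Old 4 or Young 1 to Young 4 (limma adjusted p = 0.094 to 0.142), and the C1qc call without any 1 of Old 1 to Old 4 or any Young array (0.0585 to 0.098). Without both Young 3 and Young 5 the calls of C1qc and Kcnj10 were lost (limma adjusted p = 0.221 and 0.168). Markers of border macrophages did not vary, so their change cannot be read either. The 7 choroid plexus markers and 6 liver markers held 0 calls in limma, with 0 at an unadjusted p under 0.05.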

How the data were processed

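Messenger RNA of 10 hypothalamus samples was read on Clariom S Mouse arrays, 1 per sample, from 100 ng of RNA, per the labels' protocols. The deposited log2 values hold 1 number per probe set and array; the sources used here do not say how the authors corrected, normalized and summarised them, and the log base was inferred from the range. Probe sets were named through the platform annotation (19572 with 1 gene, 0 with several, 2634 unnamed here), and the one with the highest mean was kept per gene. Ages were compared with limma 3.58.1 in R 4.3.3 (lmFit and eBayes, 2-sided, Benjamini-Hochberg over 19505 genes, threshold 0.05), tested on simulated data. Its variance prior had an SD of 7e-06 log2 with 1.04 degrees of freedom, which lowers the SE of varying genes. For Ctss the limma SE was 0.0475 and the plain SE 0.0505. The SE given for B2m, H2-D1 and H2-K1 is the plain one, and for other genes it is that of limma. Correlations within ages used values minus the age mean and an exact permutation of arrays within ages. Promoters came from RefSeq on GRCm38.p6 and were aligned locally with Biopython 1.88. No detection call was used, and precision is limited by the number of arrays.

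The class I genes and the lists were chosen with earlier results of these data known. Named genes were the 3 class I genes, list genes past the threshold or with an SD of at least 0.01 log2, up to 4 bright genes of the loading, immunoproteasome and transcription lists, the 5 and 3 genes most like the class I genes over all arrays and within ages, and markers of other cells past the threshold. Alternatives covered normalization, the variance prior, filters, the replicate number as a block, leaving out arrays and, added later, arrays 1 to 3 against 4 and 5 as a term.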

Additional observations from a re-analysis of the deposited data

Results flagged for a closer look

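For the class I genes and the other varying genes named by rule, the lowest or highest array of each age was compared with its nearest neighbour. Of 40 groups 4 were marked because that gap took up more than 0.71 of the range of the age, where chance gives about 1 in 20. Young 3 was highest of the Young arrays for Lcn2, at 7.34 log2 with a nearest value of 5.88, and lowest for Ifit3b, at 7.01 with a nearest value of 7.17. Young 5 was highest of the Young arrays for Gfap, at 9.13 with a nearest value of 8.90, and Old 1 was lowest of the Old arrays for Kcnj10, at 9.19 with a nearest value of 9.45. None of the 4 groups was of B2m, H2-D1 or H2-K1.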

How the results depend on the processing

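The differences of B2m, H2-D1 and H2-K1 moved by less than the spread between replicates under every alternative fitted to all genes; leaving out single arrays gave 0.62 to 0.70 for B2m, 0.44 to 0.48 for H2-D1 and 0.052 to 0.060 log2 for H2-K1. The counts over all genes (37 higher and 6 lower) were 546 and 7633 with quantile normalization and 92 and 19273 with arrays centred on their medians. Of these, 473 and 7588 with quantile normalization and 4 and 19209 with centring were genes that do not vary, whose near-constant values any shift of a whole array moves past their spread. The counts over all genes were 68 and 31 in the varying genes alone, 22 and 2 without Young 3 and Young 5, 25 to 37 and 4 to 9 without single arrays, and 10 lower with a trended robust prior. Calls in the joined class I lists (5 higher and 0 lower) were 16 and 66 with quantile normalization, 8 and 162 with median centring, 7 and 1 in the varying genes alone, and 5 to 6 and 0 without single arrays. With the replicate number as a block the counts were 10 and 1 over all genes and 3 and 0 in the joined lists, where limma's adjusted p was 0.0508 for C4b and 0.126 for C4a; C1qc, Gfap, Kcnj10, Ntsr2 and Pcdhb2 did not pass with it either (0.0548 to 0.467). The numbers were not taken to pair the samples. Deviations of same-numbered arrays correlated from -0.22 to 0.28, and no Old array correlated best with the Young array of its own number. Slc6a3, however, separated numbers 1 to 3 from 4 and 5 at both ages. A fit with those sets as a term, chosen after seeing the data, called 38 higher and 6 lower over all genes and 5 and 0 in the joined lists, and among the named genes that had passed, Gfap no longer did (limma adjusted p = 0.0539). Leaving out single arrays gave an r within ages of 0.75 to 0.86 for B2m and H2-D1, -0.23 to 0.40 for B2m and H2-K1, and -0.05 to 0.62 for H2-D1 and H2-K1.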
